A study of Homo sapiens with 32 samples.

Results

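The 45 genes described here are known from prostate cells to respond to androgen, and they exclude the prostate kallikreins. They were taken by gene symbol from a fixed list and made up 45 of the 25498 genes in the expression tables. The members, and the lists of other genes examined beside them, were chosen with earlier results of these data known. Shares of members set beside shares of all genes are therefore descriptions. All 45 had enough reads to be tested among 16995 genes. RNA-Seq was performed on LNCaP cells, an androgen-sensitive line grown out of a prostate cancer that had spread to a lymph node, in 8 groups of 4 libraries spread evenly over 2 labeled batches. Cells were in medium with fetal bovine serum (FBS), in medium with charcoal-stripped serum (CSS), or in CSS plus 100 ng/mL of epidermal growth factor (EGF) or neuregulin-1 (NRG-1) for 5 minutes, 1 hour, or 4 hours. Cells of the ligand groups were moved to CSS the day before the ligand was added, the labels give no time of harvest for the single CSS group, and that group served as the control for every ligand and time. The question was how these genes differed between FBS and CSS, and what addition of a ligand of the HER receptors in CSS did to them. No group had androgen added back to CSS. A single line and a single ligand dose were studied. The libraries are labeled biological replicates. The labels do not say whether they came from separate cultures, so p-values measure the spread between these libraries.

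Androgens are steroid hormones that act on transcription in prostate epithelium through androgen response elements in DNA, often at sites that factors such as FOXA1 and HOXB13 also bind. Genes that respond to them include genes for secretion, lipid and sugar metabolism, ion transport, and kinase signaling. Charcoal treatment strips steroids and other small lipophilic molecules from serum. EGF binds EGFR and NRG-1 binds HER3 or HER4, and both activate HER2 as a partner and signal through the ERK and PI3K pathways.

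Promoter sequences are shown for 4 members whose later values go in opposite directions, with a pair that was higher with the ligands at 4 hours (*FKBP5* and *STK39*) and a pair that was lower (*C1orf116* and *RAB3B*). Each holds 250 bases before and 20 bases after an annotated start site from RefSeq on GRCh38.p14, on the strand of the gene, and was chosen because a searched motif lies in it. Capitals mark AGAACA, the core hexamer of the androgen response element, in *FKBP5* (chr6:35728564-35728833, minus strand) and *STK39* (chr2:168247576-168247845, minus strand), and the TGANTCA site of AP-1 factors in *C1orf116* (chr1:207032737-207033006, minus strand) and *RAB3B* (chr1:51990681-51990950, minus strand).
FKBP5: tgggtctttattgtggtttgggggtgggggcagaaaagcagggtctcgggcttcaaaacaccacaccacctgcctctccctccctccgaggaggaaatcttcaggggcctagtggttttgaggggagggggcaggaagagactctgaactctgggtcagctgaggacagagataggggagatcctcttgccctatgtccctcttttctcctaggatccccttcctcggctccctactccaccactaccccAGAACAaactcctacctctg
STK39: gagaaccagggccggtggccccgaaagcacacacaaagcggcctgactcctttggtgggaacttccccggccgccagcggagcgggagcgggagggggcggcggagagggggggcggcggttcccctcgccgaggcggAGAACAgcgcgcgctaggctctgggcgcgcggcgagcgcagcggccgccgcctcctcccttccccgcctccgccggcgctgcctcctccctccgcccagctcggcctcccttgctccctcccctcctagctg
C1orf116: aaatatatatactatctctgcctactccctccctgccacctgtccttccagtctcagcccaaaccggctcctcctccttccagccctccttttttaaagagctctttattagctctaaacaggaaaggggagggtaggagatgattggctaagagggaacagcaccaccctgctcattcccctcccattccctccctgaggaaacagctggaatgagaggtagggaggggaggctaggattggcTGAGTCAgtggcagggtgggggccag
RAB3B: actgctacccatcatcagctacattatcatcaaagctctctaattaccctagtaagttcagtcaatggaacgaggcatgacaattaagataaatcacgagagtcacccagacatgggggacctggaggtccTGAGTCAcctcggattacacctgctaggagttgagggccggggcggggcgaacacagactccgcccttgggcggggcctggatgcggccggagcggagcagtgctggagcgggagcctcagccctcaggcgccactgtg

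The hexamer began at base 1 after the start site of *FKBP5* and 112 bases before that of *STK39*, and the AP-1 motif began 6 bases before the start site of *C1orf116* and 119 bases before that of *RAB3B*. Of the 45 members, 34 had promoter windows of 300 bases in the table used. AGAACA was found on either strand in a window of 7 of these 34 members (20.6%) and of 17.5% of all 27305 genes with windows. The 7 were *FKBP5*, *SGK1*, *STK39*, *LIFR*, *PMEPA1*, *TRPM8*, and *IQGAP2*. A gene could have several windows, and counted by window the order was reversed. AGAACA was in 8 of 68 member windows (11.8%) and in 14.8% of all 35116 windows. TGANTCA was found in 2 of 34 members (5.88%) and in 9.37% of all genes. The palindrome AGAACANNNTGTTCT and the EGR site GCGTGGGCG were in the windows of 0 of the 34 members, and of 0.00366% and 0.96% of all genes. Of the 7 with AGAACA, *TRPM8* and *IQGAP2* fell with both ligands at 4 hours and *LIFR* was called with neither. These matches describe letters in one short window and are not binding sites.

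The libraries held between 63822654 and 92401724 estimated counts (median, 77866194). The luminal and prostate markers *FOLH1* (1549.7 ± 61.5 TPM [SD, *n* = 4]), *KRT8* (526 ± 39.8 TPM), and *KRT18* (472 ± 36.0 TPM) were high in CSS. Of the 9 luminal and prostate markers examined, 4 rose and 4 fell in FBS. At 4 hours 3 rose and 6 fell with EGF, and 2 rose and 6 fell with NRG-1. Of 13 markers of other cells, *KRT5*, *TP63*, *COL1A2*, and *PECAM1* were listed at 0 TPM in all 4 CSS libraries, and the highest were *VIM* (10.9 ± 0.949 TPM), *CD68* (3.59 ± 0.378 TPM), and *COL1A1* (3.24 ± 0.691 TPM). Of the 9 of these 13 markers that could be tested, 2 rose and 3 fell in FBS, 3 rose and 1 fell at 4 hours of EGF, and 2 rose and 1 fell at 4 hours of NRG-1, and their part in the results was not tested. Per transcript length, the members in CSS ran from *DBI* (654 ± 51.3 TPM), *SORD* (439.8 ± 23.4 TPM), and *UAP1* (122 ± 13.2 TPM) down to *MAK* (0.463 ± 0.115 TPM), *CHRNA2* (0.313 ± 0.131 TPM), and *HPGD* (0.283 ± 0.0727 TPM). The SD ranges of these last 3 overlapped.

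In full serum most of these genes were higher than in stripped serum. Of the 45 members, 37 rose and 3 fell in FBS relative to CSS, whereas 26.0% of all genes tested rose and 26.8% fell. The median log2 difference was 0.88 over the members and -0.01 over all genes tested. With a log2 difference beyond 1 in either direction also required, 21 members passed (20 up and 1 down), against 8.71% of all genes. In bulk RNA, fewer cells of a kind and less RNA per cell cannot be told apart. Levels are in CPM (read counts scaled to a common library size by TMM), and 4 values given for a group are replicates 1 and 2 of batch 1 followed by replicates 1 and 2 of batch 2. Every value below marked ± SE is a log2 difference with the standard error of the edgeR quasi-likelihood fit, and each adjusted p is the Benjamini-Hochberg value from that fit over all 16995 genes.

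**Figure D1:**
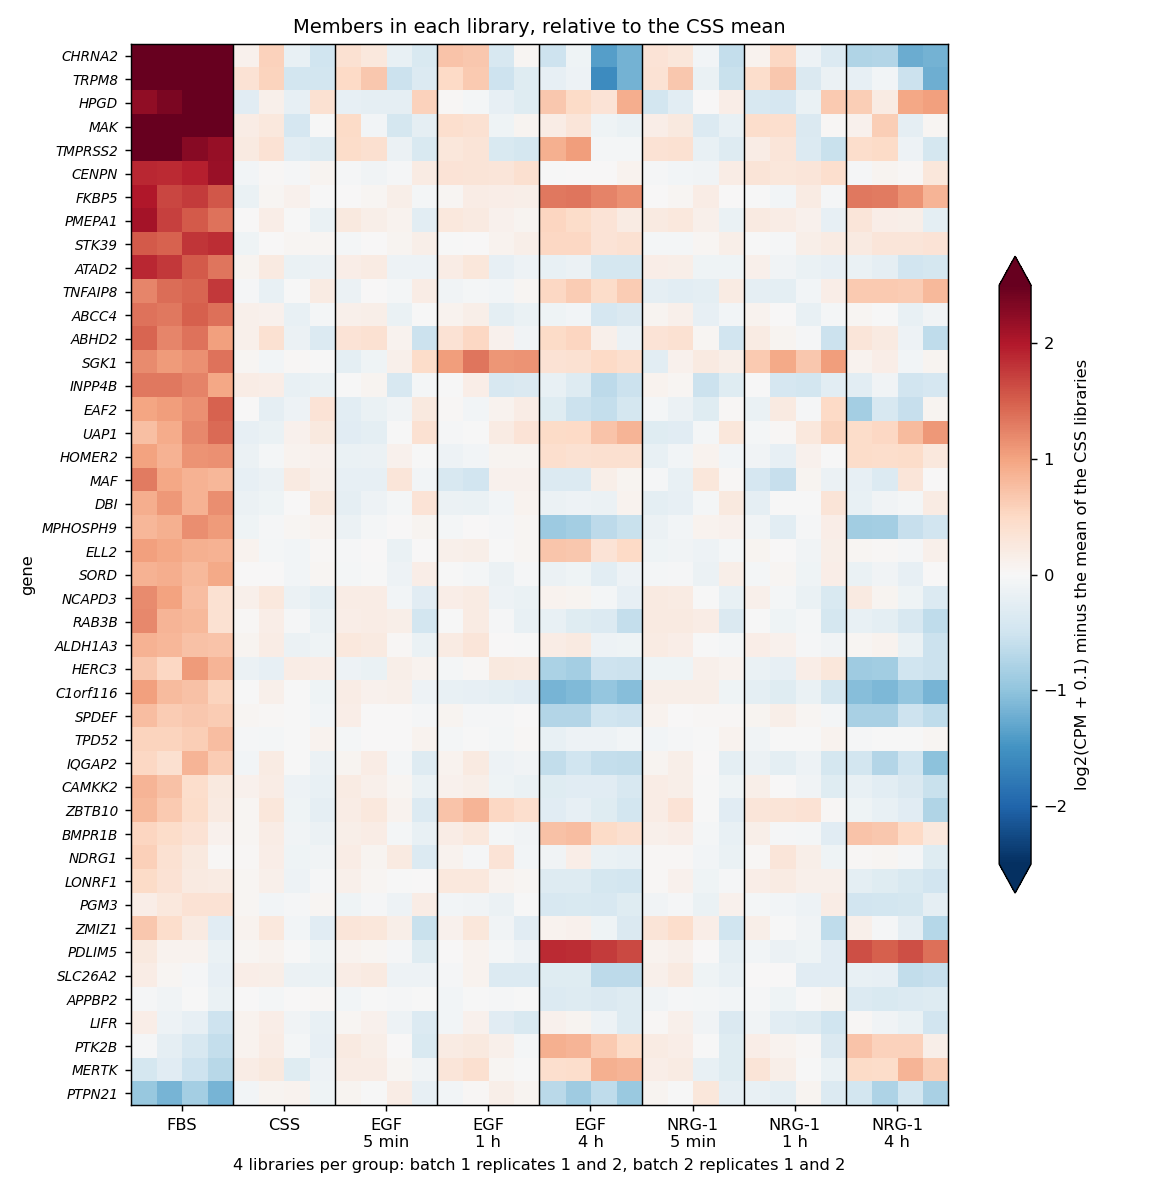
Each row is a member and each column a library, colored by log2(CPM + 0.1) minus the mean of the 4 CSS libraries (red, higher; blue, lower), with genes ordered by their difference between FBS and CSS. The FBS columns are red for most rows, the columns for either ligand at 5 minutes resemble CSS, and the 4 h columns hold both red rows such as *PDLIM5* and *FKBP5* and blue rows such as *C1orf116*.

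Among membrane and secretory members, 6 of 7 rose in FBS. *CHRNA2*, a subunit of the nicotinic acetylcholine receptor, measured 19.0, 16.5, 13.6, and 13.1 CPM in FBS and 0.738, 1.06, 0.586, and 0.449 CPM in CSS. The groups were far apart, and *CHRNA2* had the largest difference of any member (4.50 ± 0.15 SE, edgeR adjusted p = 9.15e-20). *TRPM8*, the cold- and menthol-gated cation channel, measured 30.8, 29.5, 16.4, and 16.5 CPM in FBS and 2.30, 2.65, 1.25, and 1.25 CPM in CSS (3.66 ± 0.12 SE, edgeR adjusted p = 7.84e-20). Its batch 1 libraries were higher than its batch 2 libraries in both groups, and the difference was 3.61 within batch 1 and 3.72 within batch 2. *TMPRSS2*, a cell-surface serine protease, measured 591, 508, 385, and 358 CPM in FBS and 93.2, 101.4, 66.2, and 63.3 CPM in CSS (2.51 ± 0.083 SE, edgeR adjusted p = 1.33e-19), again with no overlap. The efflux pump *ABCC4* (1.40 ± 0.066 SE), the vesicle GTPase *RAB3B* (0.83 ± 0.12 SE), and *TPD52*, a protein of vesicle trafficking (0.63 ± 0.042 SE), rose as well. The sulfate transporter *SLC26A2* did not pass the test, and its difference lay between -0.08 and 0.09 (2 SE on either side).

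Of 14 signaling members, 10 rose and 3 fell. *FKBP5*, a co-chaperone of HSP90 in steroid receptor complexes, measured 242, 192, 203, and 178 CPM in FBS and 53.6, 62.9, 65.5, and 60.3 CPM in CSS. The lowest FBS library was above all CSS libraries by a wide margin (1.75 ± 0.092 SE, edgeR adjusted p = 2.29e-15). *MAK*, a kinase first described in male germ cells, measured 10.2, 10.3, 7.55, and 6.96 CPM in FBS and 1.12, 1.20, 0.708, and 0.972 CPM in CSS (3.13 ± 0.12 SE, edgeR adjusted p = 1.53e-18). *PMEPA1*, an inhibitor of TGF-β signaling, measured 151, 117, 103, and 91.8 CPM in FBS and 36.1, 39.8, 35.2, and 31.9 CPM in CSS (1.68 ± 0.093 SE, edgeR adjusted p = 6.8e-15). In both genes the groups did not overlap.

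Smaller rises were seen for other signaling members. *SGK1*, the serum- and glucocorticoid-regulated kinase, measured 4.26, 3.89, 4.14, and 4.77 CPM in FBS and 1.87, 1.72, 1.85, and 1.80 CPM in CSS (1.23 ± 0.12 SE, edgeR adjusted p = 6.73e-10). *CAMKK2*, a kinase upstream of AMPK, measured 149.8, 137, 112, and 98.5 CPM in FBS and 89.6, 94.7, 76.3, and 73.2 CPM in CSS (0.57 ± 0.067 SE, edgeR adjusted p = 4.55e-08). *INPP4B*, a phosphoinositide phosphatase, measured 13.7, 13.7, 13.1, and 10.8 CPM in FBS and 6.23, 6.12, 4.77, and 4.87 CPM in CSS (1.23 ± 0.091 SE, edgeR adjusted p = 3.92e-12). None of these 3 overlapped between the groups. The kinase *STK39* (1.66 ± 0.061 SE), which acts on ion cotransporters, *TNFAIP8* (1.47 ± 0.094 SE), a regulator of apoptosis, and *BMPR1B* (0.37 ± 0.060 SE), a type I receptor for bone morphogenetic proteins, also rose. *NDRG1*, a stress-responsive gene, measured 67.3, 57.6, 52.4, and 45.5 CPM in FBS and 45.5, 49.8, 41.2, and 41.5 CPM in CSS, with overlap (0.32 ± 0.11 SE, edgeR adjusted p = 0.012). Without FBS batch 1 replicate 1 its difference was 0.24 and its edgeR adjusted p was 0.0628.

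The 3 members that were lower in FBS are all of the signaling group. *PTPN21*, a protein tyrosine phosphatase, measured 8.12, 7.02, 8.71, and 7.01 CPM in FBS and 15.1, 16.7, 16.9, and 14.7 CPM in CSS, without overlap (-1.04 ± 0.11 SE, edgeR adjusted p = 7.12e-09). *MERTK*, a receptor tyrosine kinase of the TAM family, measured 5.98, 6.65, 5.65, and 4.99 CPM in FBS and 9.29, 9.70, 6.59, and 7.48 CPM in CSS (-0.50 ± 0.14 SE, edgeR adjusted p = 0.00276). *PTK2B*, a nonreceptor tyrosine kinase related to FAK, measured 96.5, 83.7, 74.7, and 65.0 CPM in FBS and 104, 112, 94.5, and 84.9 CPM in CSS (-0.31 ± 0.092 SE, edgeR adjusted p = 0.00579). For *MERTK* and *PTK2B* the groups overlapped, although within each batch the FBS libraries were below the CSS libraries. *LIFR*, the receptor for leukemia inhibitory factor, did not pass the test (-0.16 ± 0.080 SE, edgeR adjusted p = 0.0884), but did so with the replicate block as a term (-0.17, edgeR adjusted p = 0.0101).

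All 7 metabolic members rose in FBS. *HPGD*, which inactivates prostaglandins, measured 2.47, 2.702, 7.75, and 10.9 CPM in FBS and 0.351, 0.501, 0.376, and 0.619 CPM in CSS (3.57 ± 0.30 SE, edgeR adjusted p = 5.68e-11). Its FBS libraries were higher in batch 2 than in batch 1, and the difference was 2.61 within batch 1 and 4.23 within batch 2. The hydrolase *ABHD2* (1.27 ± 0.14 SE), *DBI* (1.01 ± 0.094 SE), which binds acyl-CoA esters, the polyol enzyme *SORD* (0.88 ± 0.067 SE), and *ALDH1A3* (0.79 ± 0.061 SE), which makes retinoic acid, were also higher. *UAP1* (1.08 ± 0.083 SE) and *PGM3* (0.29 ± 0.068 SE), consecutive enzymes in the synthesis of UDP-GlcNAc, both rose.

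Of 7 transcription factors and cofactors, 6 rose: the bromodomain ATPase *ATAD2* (1.63 ± 0.052 SE), *EAF2* (1.19 ± 0.15 SE) and *ELL2* (0.94 ± 0.060 SE), partners in transcription elongation, the leucine zipper factor *MAF* (1.04 ± 0.12 SE), the epithelial ETS factor *SPDEF* (0.68 ± 0.064 SE), and the zinc finger factor *ZBTB10* (0.54 ± 0.10 SE). *ZMIZ1*, a PIAS-like transcriptional coregulator, was at 0.27 ± 0.14 SE (edgeR adjusted p = 0.108), and at 0.26 with an edgeR adjusted p of 0.00434 with the replicate block. Of 7 members of cell division and scaffolds, 5 rose. *CENPN*, a centromere protein, measured 213, 210.1, 221, and 259 CPM in FBS and 54.7, 59.0, 56.2, and 60.7 CPM in CSS, without overlap (1.97 ± 0.066 SE, edgeR adjusted p = 1.63e-19). The centrosomal protein *MPHOSPH9* (0.99 ± 0.057 SE), the condensin II subunit *NCAPD3* (0.85 ± 0.077 SE), and the scaffolds *HOMER2* (1.04 ± 0.061 SE) and *IQGAP2* (0.61 ± 0.11 SE) were also higher. All 10 proliferation genes examined beside them, among them *MKI67* (1.14 ± 0.20 SE) and *TOP2A* (1.31 ± 0.083 SE), rose in FBS, with a median of 1.46, and the part of proliferation in the rise of *CENPN*, *NCAPD3*, *MPHOSPH9*, and *ATAD2* was not tested. The PDZ-LIM protein *PDLIM5* (0.07 ± 0.067 SE, edgeR adjusted p = 0.413) and the adaptor *APPBP2* (-0.07 ± 0.039 SE, edgeR adjusted p = 0.115) did not pass the test. The ubiquitin ligase *HERC3* (0.78 ± 0.048 SE), the RING and Lon domain protein *LONRF1* (0.32 ± 0.041 SE), and *C1orf116* (0.78 ± 0.079 SE), also known as SARG, for specifically androgen-regulated gene, rose.

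Of the 40 members called between FBS and CSS, 34 were called under every alternative fitted and all 40 had the same direction in both batches. The calls of *PTK2B*, *BMPR1B*, *NDRG1*, *ZBTB10*, *PGM3*, and *LONRF1* were lost under at least 1 alternative, with highest adjusted p-values between 0.0915 and 0.638.

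At 5 minutes of ligand no change in these genes was detectable. None of the 45 members was called with EGF or with NRG-1, at 0.00588% (higher) and 0.00% (lower) of all genes for EGF and 0.00% in both directions for NRG-1. None of the members had an unadjusted p under 0.05 in the edgeR quasi-likelihood test with either ligand, and DESeq2 called 0. Over all genes tested, 251 and 324 had an unadjusted p under 0.05 with EGF and NRG-1. For *FKBP5* the difference lay between -0.14 and 0.22 with EGF and between -0.12 and 0.24 with NRG-1 (2 SE on either side), and for *TMPRSS2* between -0.07 and 0.24 and between -0.10 and 0.22.

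At 1 hour a handful of members had changed, led by *SGK1*. With EGF, 4 of 45 members rose, where 6.00% of all genes did, and 1 fell, where 3.51% did. With NRG-1, 3 rose and 2 fell, where 4.45% and 2.28% of all genes did. *SGK1* measured 3.83, 4.72, 3.99, and 4.08 CPM with EGF and 2.92, 3.58, 2.95, and 3.82 CPM with NRG-1, all above the highest CSS library. The rise was 1.20 ± 0.12 SE with EGF (edgeR adjusted p = 5.41e-09) and 0.87 ± 0.12 SE with NRG-1 (edgeR adjusted p = 3.6e-06), and the libraries with EGF at 1 hour overlapped with those in FBS. *ZBTB10* measured 104, 115, 90.9, and 84.6 CPM with EGF, 79.0, 79.4, 82.2, and 64.5 CPM with NRG-1, and 65.4, 77.6, 59.1, and 54.7 CPM in CSS. The EGF libraries did not overlap with CSS (0.62 ± 0.10 SE, edgeR adjusted p = 3.78e-05), and the NRG-1 libraries did (0.26 ± 0.10 SE, edgeR adjusted p = 0.143). *CENPN* measured 73.4, 71.7, 71.0, and 75.8 CPM with EGF and 72.3, 70.2, 71.2, and 77.0 CPM with NRG-1, above all CSS libraries with both (0.34 ± 0.064 SE and 0.33 ± 0.064 SE, edgeR adjusted p = 0.000333 and 0.000645). None of the 10 proliferation genes was called at 1 hour with either ligand by the edgeR quasi-likelihood test.

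The other calls at 1 hour were small. *LONRF1* rose by 0.17 with EGF and 0.16 with NRG-1 (edgeR adjusted p = 0.00657 and 0.0135). *SLC26A2* was at -0.15 with EGF (edgeR adjusted p = 0.0168). *LIFR* was at -0.29 and *C1orf116* at -0.29 with NRG-1 (edgeR adjusted p = 0.0182 and 0.0194). *SGK1* alone kept its call under every alternative with either ligand. Leaving out 1 library ended the call of *SLC26A2* (without EGF 1 h batch 1 replicate 1, batch 2 replicate 1, or batch 2 replicate 2, edgeR adjusted p between 0.0535 and 0.0646), and with NRG-1 the calls of *LIFR*, *LONRF1*, and *C1orf116* (edgeR adjusted p between 0.0520 and 0.119), among them without CSS batch 2 replicate 1, which left 2 called, and without NRG-1 1 h batch 1 replicate 2, which left 3. With the replicate block as a term, 8 members were called with EGF and 10 with NRG-1. Those added were *LIFR*, *UAP1*, and *C1orf116* with EGF (-0.16, 0.13, and -0.23) and *INPP4B*, *ZBTB10*, *UAP1*, *SLC26A2*, and *PDLIM5* with NRG-1 (-0.28, 0.26, 0.21, -0.13, and -0.15).

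At 4 hours members were called in both directions. With EGF, 13 of 45 rose (28.9%) and 21 fell (46.7%) relative to CSS, where 24.6% of all genes rose and 24.6% fell. With NRG-1, 10 rose (22.2%) and 18 fell (40.0%), where 21.6% and 21.0% of all genes did. The share of members that rose was thus near that of all genes, and the share that fell was above it. The median log2 difference was -0.09 with EGF and -0.06 with NRG-1, and over all genes tested it was -0.02 and -0.01. A log2 difference beyond 1 was reached by 3 members with EGF and 4 with NRG-1, where 9.56% and 7.41% of all genes reached it. Whether the libraries of a ligand group overlapped with those in CSS is given gene by gene below and was not counted over all genes. The ligand comparisons and the serum comparison share the CSS libraries, so values are set side by side below, and differences between ligands or from FBS rest on the direct tests that follow.

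**Figure D2:**
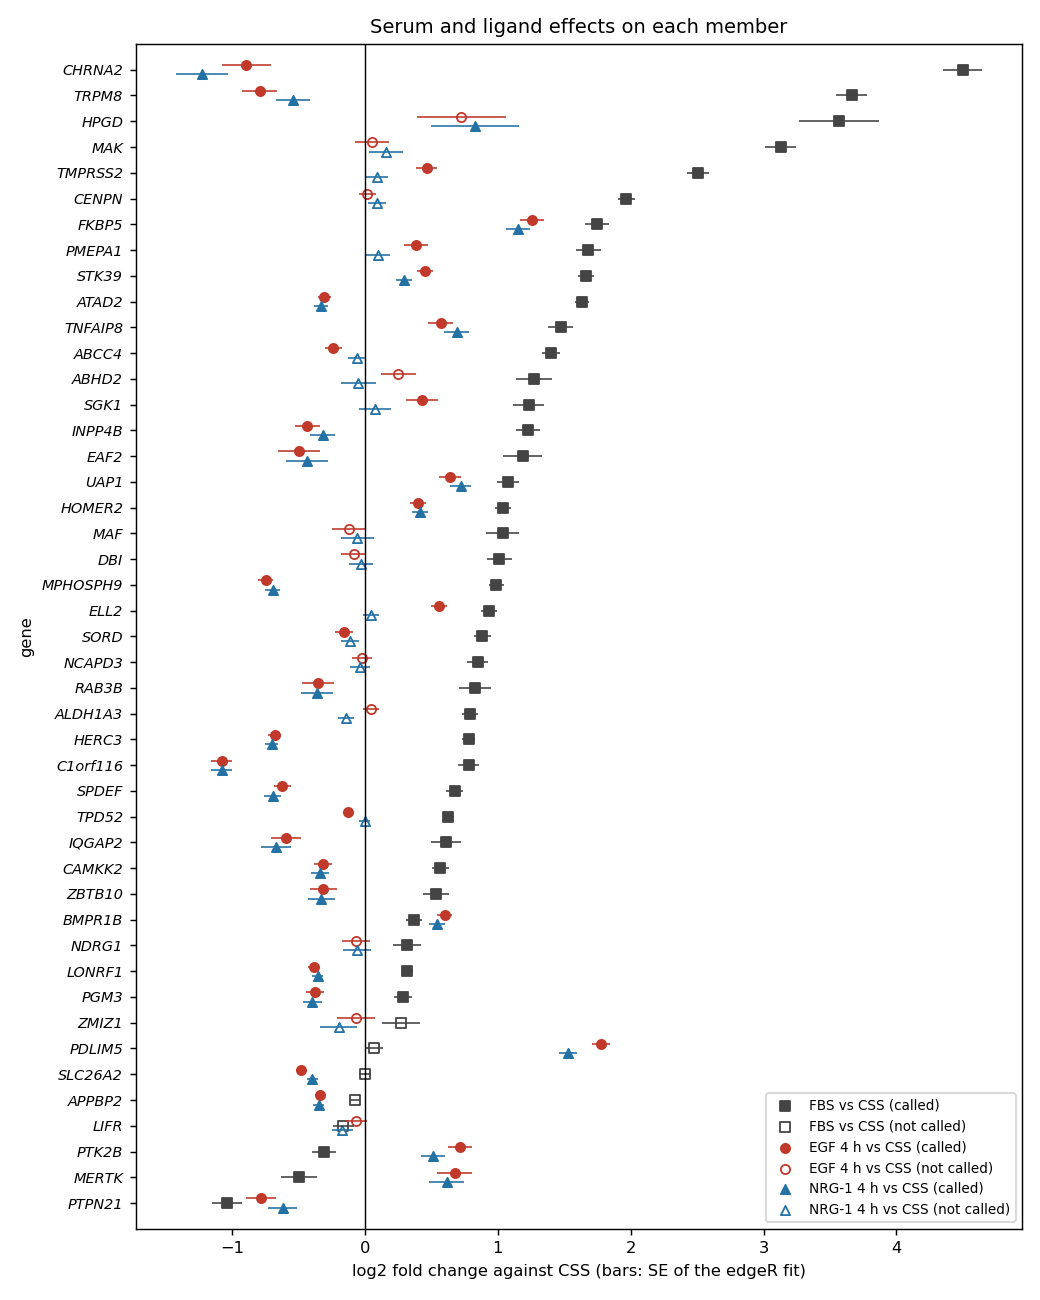
Log2 fold change against CSS of each member (x axis) in FBS (squares), EGF 4 h (circles), and NRG-1 4 h (triangles), with bars of 1 SE of the edgeR fit. Filled symbols passed an adjusted p of 0.05. Most squares lie right of 0, whereas circles and triangles lie on both sides, from *C1orf116* and *CHRNA2* at the left to *FKBP5* and *PDLIM5* at the right.

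Among signaling members, 8 of 14 rose and 3 fell with EGF at 4 hours, and 6 rose and 3 fell with NRG-1. *FKBP5* measured 150.5, 152, 142, and 134 CPM with EGF and 151, 148, 131, and 109 CPM with NRG-1. All 8 libraries lay between the CSS and FBS libraries, overlapping with neither (1.26 ± 0.091 SE with EGF and 1.15 ± 0.091 SE with NRG-1, edgeR adjusted p = 2.21e-12 and 2.1e-11). *PTK2B* measured 183, 177, 156, and 135 CPM with EGF and 161, 147, 146, and 109 CPM with NRG-1. The EGF libraries were above all CSS libraries (0.72 ± 0.092 SE, edgeR adjusted p = 1.63e-07), and with NRG-1 1 library lay within the CSS range (0.51 ± 0.092 SE, edgeR adjusted p = 3.84e-05). *MERTK* measured 11.0, 11.1, 15.2, and 14.8 CPM with EGF and 11.4, 11.3, 14.8, and 12.6 CPM with NRG-1, above all CSS libraries (0.68 ± 0.13 SE and 0.61 ± 0.13 SE, edgeR adjusted p = 8.63e-05 and 0.000357). Its rise with EGF was 0.22 within batch 1 and 1.12 within batch 2. *PTK2B* and *MERTK* were thus higher with the ligands and lower with FBS than in CSS.

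*BMPR1B* measured 60.3, 61.9, 50.1, and 47.7 CPM with EGF and 58.9, 57.9, 51.1, and 43.1 CPM with NRG-1, above the CSS libraries (37.4, 41.1, 33.9, and 32.4 CPM) with both (0.60 ± 0.060 SE and 0.54 ± 0.060 SE, edgeR adjusted p = 1.56e-09 and 1.62e-08). *TNFAIP8* measured 16.9, 18.3, 16.1, and 18.3 CPM with EGF, 18.4, 18.5, 18.2, and 20.6 CPM with NRG-1, and 11.5, 10.3, 11.7, and 13.5 CPM in CSS, without overlap (0.57 ± 0.094 SE and 0.69 ± 0.094 SE, edgeR adjusted p = 8.93e-06 and 6.54e-07). *STK39*, whose promoter is shown above, rose by 0.45 and 0.30, with no overlap with CSS for either ligand. *SGK1* at 4 hours lay below every library of the same ligand at 1 hour and measured 2.35, 2.38, 2.58, and 2.45 CPM with EGF and 1.94, 2.05, 1.71, and 1.91 CPM with NRG-1 (0.43 ± 0.12 SE and 0.08 ± 0.12 SE, edgeR adjusted p = 0.00366 and 0.662). *PMEPA1* measured 51.5, 49.0, 45.1, and 40.9 CPM with EGF and 43.8, 39.8, 39.3, and 30.3 CPM with NRG-1. It rose with EGF (0.38 ± 0.091 SE, edgeR adjusted p = 0.000892) and did not pass the test with NRG-1 (0.10 ± 0.091 SE, edgeR adjusted p = 0.434).

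The phosphatases fell. *PTPN21* measured 9.88, 8.47, 10.2, and 8.31 CPM with EGF and 11.4, 9.27, 11.5, and 9.04 CPM with NRG-1, below all CSS libraries (-0.78 ± 0.11 SE and -0.62 ± 0.11 SE, edgeR adjusted p = 7.9e-07 and 3.28e-05). *INPP4B* measured 4.76, 4.34, 3.42, and 3.75 CPM with EGF and 4.51, 5.14, 3.91, and 4.06 CPM with NRG-1 (-0.43 ± 0.094 SE and -0.32 ± 0.094 SE, edgeR adjusted p = 0.000317 and 0.00742). The kinase *CAMKK2* fell too, at 67.0, 68.4, 68.4, and 62.6 CPM with EGF and 73.3, 69.4, 64.3, and 56.1 CPM with NRG-1 (-0.31 ± 0.067 SE and -0.34 ± 0.067 SE, edgeR adjusted p = 0.000278 and 0.000142). With EGF neither *INPP4B* nor *CAMKK2* overlapped with CSS, whereas with NRG-1 both did. *NDRG1* measured 41.8, 49.7, 39.5, and 39.0 CPM with EGF and 45.2, 46.1, 43.5, and 36.0 CPM with NRG-1, overlapping with CSS. *NDRG1* (-0.07 ± 0.11 SE and -0.06 ± 0.11 SE), *MAK* (0.05 ± 0.13 SE and 0.16 ± 0.13 SE), and *LIFR* (-0.07 ± 0.079 SE and -0.17 ± 0.080 SE) did not pass the test with either ligand, and with the replicate block *LIFR* passed with NRG-1 (edgeR adjusted p = 0.00832).

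Membrane and secretory members were mostly lower: 1 of 7 rose and 6 fell with EGF, and 4 fell with NRG-1. *CHRNA2* measured 0.442, 0.626, 0.201, and 0.245 CPM with EGF and 0.3603, 0.365, 0.229, and 0.245 CPM with NRG-1 (-0.89 ± 0.18 SE and -1.22 ± 0.20 SE, edgeR adjusted p = 0.00018 and 7.91e-06), and only with NRG-1 were all its libraries below all CSS libraries. *TRPM8* measured 1.51, 1.61, 0.529, and 0.720 CPM with EGF and 1.51, 1.67, 1.18, and 0.704 CPM with NRG-1 (-0.79 ± 0.13 SE and -0.54 ± 0.13 SE, edgeR adjusted p = 9.95e-06 and 0.00123). For *TRPM8* the batches differ in level and the groups overlapped, but within each batch every library with a ligand was below both CSS libraries. Both genes thus fell from a CSS level that was already far below that in FBS. *SLC26A2* fell without overlap (-0.48 ± 0.043 SE and -0.40 ± 0.043 SE, edgeR adjusted p = 1.88e-10 and 1.1e-08), and *RAB3B*, whose promoter is shown above, fell by a similar amount in both (-0.35 ± 0.12 SE and -0.36 ± 0.12 SE, edgeR adjusted p = 0.0152 and 0.0156). *ABCC4* (-0.24 ± 0.064 SE) and *TPD52* (-0.12 ± 0.042 SE) fell with EGF, and were at -0.06 ± 0.064 SE and -0.0026 ± 0.042 SE with NRG-1 (edgeR adjusted p = 0.493 and 0.968). *TMPRSS2* measured 148, 163, 76.5, and 76.2 CPM with EGF and 108, 110.3, 72.4, and 58.7 CPM with NRG-1. Its EGF libraries overlapped with CSS across the batches and were higher within each. It rose with EGF (0.46 ± 0.079 SE, edgeR adjusted p = 1.56e-05), by 0.67 within batch 1 and 0.26 within batch 2, where the edgeR adjusted p was 0.15, and it did not pass the test with NRG-1 (0.09 ± 0.079 SE, edgeR adjusted p = 0.386).

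In metabolism the hexosamine enzymes parted. *UAP1* measured 212, 216, 250.1, and 276 CPM with EGF, 210.4, 218, 263, and 325 CPM with NRG-1, and 133, 137, 164, and 182 CPM in CSS, without overlap (0.64 ± 0.082 SE and 0.72 ± 0.082 SE, edgeR adjusted p = 1.71e-07 and 2.93e-08). *PGM3* fell, also without overlap (-0.38 ± 0.068 SE and -0.39 ± 0.068 SE, edgeR adjusted p = 3.67e-05 and 2.4e-05). *SORD* was at -0.16 ± 0.066 SE with EGF (edgeR adjusted p = 0.0477) and at -0.11 ± 0.066 SE with NRG-1 (edgeR adjusted p = 0.183, and 0.0136 with the replicate block). *HPGD* measured 0.784, 0.672, 0.604, and 0.934 CPM with EGF and 0.747, 0.534, 0.977, and 1.03 CPM with NRG-1, and the groups overlapped with CSS (0.73 ± 0.33 SE and 0.83 ± 0.33 SE, edgeR adjusted p = 0.0733 and 0.0454). With the replicate block *HPGD* was called with EGF too (edgeR adjusted p = 0.0445). *ALDH1A3* (0.05 ± 0.061 SE and -0.14 ± 0.061 SE), *ABHD2* (0.25 ± 0.13 SE and -0.05 ± 0.13 SE), and *DBI* (-0.09 ± 0.093 SE and -0.03 ± 0.093 SE) did not pass the test. With the replicate block *ABHD2* passed with EGF and *ALDH1A3* with NRG-1 (edgeR adjusted p = 0.0112 and 0.0360).

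Transcription regulators mostly fell, 4 of 7 with each ligand. *SPDEF* measured 41.7, 41.5, 49.1, and 48.2 CPM with EGF, 39.5, 39.3, 48.3, and 44.7 CPM with NRG-1, and 72.1, 70.9, 68.6, and 66.1 CPM in CSS, without overlap (-0.62 ± 0.064 SE and -0.69 ± 0.064 SE, edgeR adjusted p = 3.02e-09 and 5.39e-10). *ATAD2* (-0.30 ± 0.051 SE and -0.33 ± 0.051 SE), *EAF2* (-0.50 ± 0.16 SE and -0.44 ± 0.16 SE), and *ZBTB10* (-0.31 ± 0.10 SE and -0.33 ± 0.10 SE) fell as well. *ZBTB10* was thus above CSS at 1 hour of EGF and below it at 4 hours. *ELL2* measured 63.96, 63.8, 50.1, and 56.5 CPM with EGF, 41.1, 40.7, 39.2, and 43.3 CPM with NRG-1, and 42.5, 38.5, 37.7, and 40.5 CPM in CSS. It rose with EGF, without overlap (0.56 ± 0.059 SE, edgeR adjusted p = 6.12e-09), and was at 0.05 ± 0.059 SE with NRG-1 (edgeR adjusted p = 0.563). *MAF* (-0.12 ± 0.12 SE and -0.06 ± 0.12 SE) and *ZMIZ1* (-0.07 ± 0.14 SE and -0.20 ± 0.14 SE) did not pass the test with either ligand, and with the replicate block *ZMIZ1* passed with NRG-1 (edgeR adjusted p = 0.0249).

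The largest rise of any member with a ligand was that of *PDLIM5*, which had not passed the test between FBS and CSS. It measured 313, 310.3, 291, and 270.3 CPM with EGF, 264, 245, 264, and 224 CPM with NRG-1, 89.2, 91.4, 85.4, and 79.7 CPM in CSS, and 102, 92.04, 91.9, and 77.1 CPM in FBS. Every library with a ligand was far above every CSS and FBS library (1.78 ± 0.069 SE and 1.53 ± 0.069 SE, edgeR adjusted p = 2.4e-18 and 9.6e-17). At 1 hour *PDLIM5* had been at -0.02 ± 0.067 SE with EGF and -0.15 ± 0.067 SE with NRG-1. *HOMER2* rose (0.40 ± 0.061 SE and 0.41 ± 0.061 SE), and *MPHOSPH9* fell from 37.8, 39.8, 41.8, and 43.3 CPM in CSS to 21.7, 22.4, 25.8, and 27.5 CPM with EGF and 22.3, 22.6, 27.1, and 29.0 CPM with NRG-1 (-0.75 ± 0.057 SE and -0.70 ± 0.057 SE, edgeR adjusted p = 8.46e-12 and 5.43e-11). *IQGAP2* measured 14.2, 17.2, 14.9, and 13.5 CPM in CSS, 9.63, 10.5, 9.78, and 9.72 CPM with EGF, and 10.7, 8.96, 10.6, and 7.27 CPM with NRG-1 (-0.59 ± 0.11 SE and -0.67 ± 0.11 SE, edgeR adjusted p = 7.39e-05 and 1.99e-05). For both genes the groups with a ligand were below all CSS libraries. *APPBP2* fell by less (-0.34 ± 0.039 SE and -0.35 ± 0.039 SE), and *CENPN* (0.02 ± 0.064 SE and 0.09 ± 0.064 SE) and *NCAPD3* (-0.02 ± 0.077 SE and -0.04 ± 0.077 SE) did not pass the test. Of the 10 proliferation genes, 1 rose and 2 fell with EGF and 2 fell with NRG-1.

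**Figure D3:**
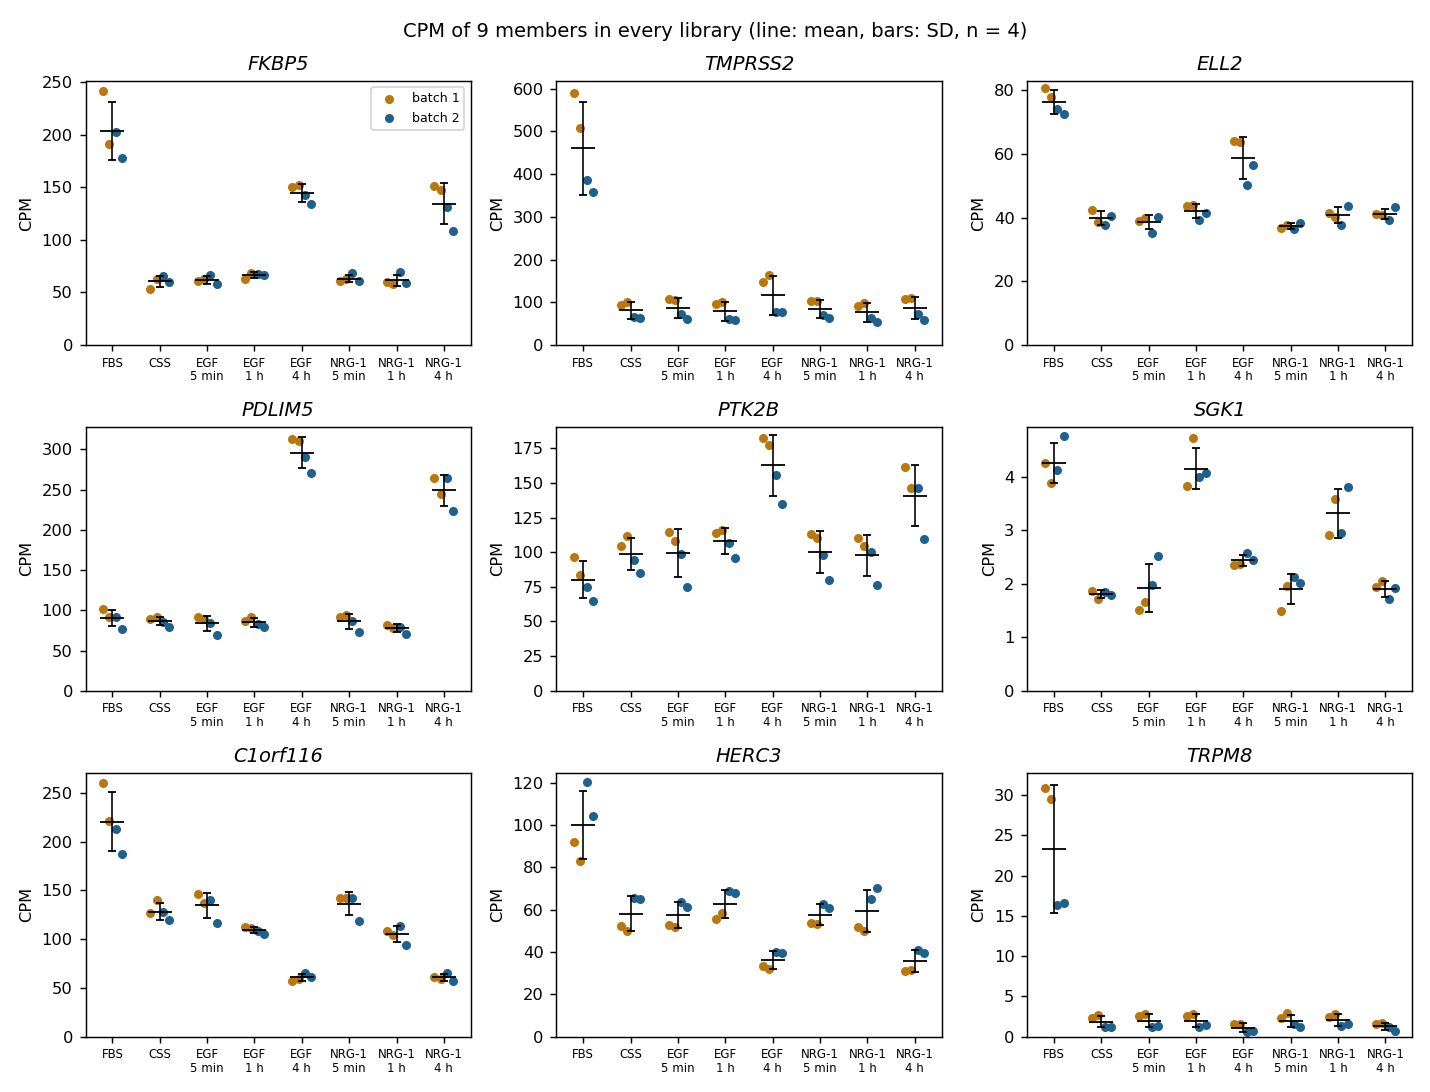
CPM of 9 members (y axis, from 0) in each library of the 8 groups (x axis), colored by batch, with lines at the mean and bars of 1 SD (*n* = 4). *FKBP5* with either ligand at 4 h lies between CSS and FBS, *PDLIM5* at 4 h stands above all other groups, *SGK1* with either ligand is highest at 1 h, and *TMPRSS2* and *ELL2* are raised at 4 h with EGF.

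All 3 members of the ubiquitin and other group fell with both ligands. *C1orf116* measured 126, 139.6, 127, and 119 CPM in CSS, 57.0, 59.5, 65.1, and 61.1 CPM with EGF, and 61.3, 58.6, 65.6, and 57.1 CPM with NRG-1. The level with either ligand was under every CSS library (-1.08 ± 0.079 SE and -1.08 ± 0.079 SE, edgeR adjusted p = 3.4e-12 and 5.2e-12). *HERC3* measured 52.1, 49.9, 65.4, and 65.0 CPM in CSS, 33.5, 31.8, 40.0, and 39.6 CPM with EGF, and 31.0, 31.5, 41.0, and 39.5 CPM with NRG-1, also without overlap (-0.68 ± 0.049 SE and -0.70 ± 0.049 SE, edgeR adjusted p = 1.88e-12 and 1.48e-12). *LONRF1* fell by 0.39 with EGF and 0.35 with NRG-1, after its small rise at 1 hour. All 10 genes examined as outputs of ERK signaling rose at 4 hours with each ligand, among them *DUSP6* (5.24 ± 0.14 SE and 4.33 ± 0.14 SE).

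Of the members called at 4 hours, 18 of 34 with EGF and 17 of 28 with NRG-1 were called under every alternative, and all had the same direction in both batches. The other 16 with EGF and 11 with NRG-1 lost their call under at least 1 alternative. Their highest adjusted p-values over the alternatives were between 0.0526 and 0.561 with EGF and between 0.0572 and 0.499 with NRG-1. Leaving out 1 library ended the calls of *SORD* with EGF (edgeR adjusted p up to 0.15, for 7 of 8 libraries), of *EAF2* and *TPD52* without CSS batch 2 replicate 2 (edgeR adjusted p = 0.0539 and 0.0558), and of *RAB3B* without EGF 4 h batch 2 replicate 2 (edgeR adjusted p = 0.0517), and, with NRG-1, of *HPGD* (up to 0.172, for 6 of 8 libraries), *EAF2* (up to 0.121, for 4 of 8 libraries), and *RAB3B* without CSS batch 2 replicate 1 (edgeR adjusted p = 0.0507).

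EGF and NRG-1 were then compared directly. At 1 hour none of the members was called in the edgeR quasi-likelihood test (0.941% of all genes were higher with EGF and 0.118% lower). In that test 6 members and 1397 of the 16995 genes had an unadjusted p under 0.05, and DESeq2 called 1 member. *ZBTB10* was at 0.36 ± 0.10 SE (edgeR adjusted p = 0.0889, and 0.00113 with the replicate block). At 4 hours 2 members were higher with EGF and 0 lower, where 1.25% and 0.412% of all genes were. *ELL2* was higher with EGF in all 4 libraries than in any library with NRG-1 (0.51 ± 0.059 SE, edgeR adjusted p = 5.4e-06), by 0.64 within batch 1 and 0.38 within batch 2. *TMPRSS2* was higher by 0.37 ± 0.079 SE (edgeR adjusted p = 0.00971), by 0.51 within batch 1 and 0.23 within batch 2, and its groups overlapped across batches. Without EGF 4 h batch 1 replicate 1 or batch 1 replicate 2 the edgeR adjusted p of *TMPRSS2* was 0.0575 or 0.0822, and both calls were lost within batch 2 alone (edgeR adjusted p = 0.593 and 0.887). With the replicate block, 8 members were called: also *PTK2B* (0.21), *PMEPA1* (0.29), *ALDH1A3* (0.19), *ABHD2* (0.31), and *PDLIM5* (0.25) higher with EGF, and *TPD52* (-0.12) lower. For *FKBP5* the difference between the ligands lay between -0.07 and 0.28, for *C1orf116* between -0.16 and 0.16, and for *HERC3* between -0.07 and 0.12 (2 SE on either side).

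The levels with a ligand were also set against full serum. At 4 hours of EGF 4 members were higher and 39 lower than in FBS, where 31.5% and 31.0% of all genes were, and at 4 hours of NRG-1 5 were higher and 39 lower, where 29.4% and 27.8% were. *FKBP5* was below its level in FBS with EGF (-0.49 ± 0.089 SE, edgeR adjusted p = 2.55e-05) and with NRG-1 (-0.60 ± 0.089 SE, edgeR adjusted p = 1.69e-06). *TMPRSS2* was much further below (-2.04 ± 0.082 SE and -2.42 ± 0.083 SE), and *CHRNA2* (-5.39 ± 0.16 SE and -5.72 ± 0.17 SE) and *TRPM8* (-4.45 ± 0.13 SE and -4.20 ± 0.12 SE) were the furthest. *SGK1* at 4 hours was at -0.80 ± 0.11 SE and -1.16 ± 0.12 SE. Above FBS were *PDLIM5* (1.71 ± 0.069 SE and 1.46 ± 0.068 SE), *MERTK* (1.18 ± 0.13 SE and 1.11 ± 0.14 SE), *PTK2B* (1.03 ± 0.092 SE and 0.82 ± 0.092 SE), and, by less, *BMPR1B* (0.23 ± 0.059 SE and 0.17 ± 0.059 SE, edgeR adjusted p = 0.00153 and 0.0169). *PTPN21* was at 0.25 ± 0.11 SE with EGF (edgeR adjusted p = 0.0503, and 0.00137 with the replicate block) and was higher than FBS with NRG-1 (0.42 ± 0.11 SE, edgeR adjusted p = 0.00225). *LIFR* did not pass the test against FBS with either ligand (0.10 ± 0.080 SE and -0.01 ± 0.080 SE). The call of *ZMIZ1* below FBS with EGF was lost without FBS batch 1 replicate 1 or 4 other libraries (edgeR adjusted p up to 0.125), and that of *BMPR1B* above FBS with NRG-1 without 3 libraries, FBS batch 1 replicate 2 among them (edgeR adjusted p up to 0.0803).

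**Figure D4:**
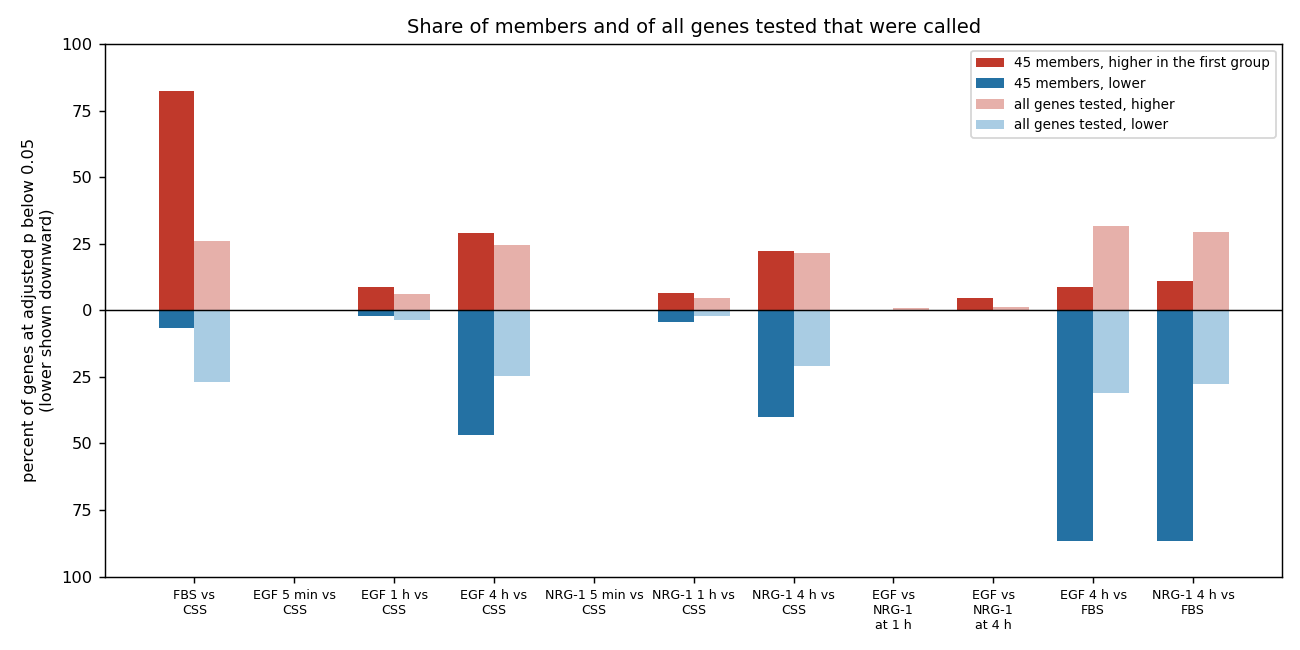
Percent of the 45 members (dark bars) and of all genes tested (pale bars) called higher (upward) or lower (downward) at an adjusted p of 0.05 in each of the 11 comparisons (x axis). In FBS vs CSS 82.2% of members were higher against 26.0% of all genes. At 4 h the members lower with EGF made up 46.7% against 24.6%. At 4 h of either ligand 86.7% of members were below FBS, against 31.0% of all genes with EGF and 27.8% with NRG-1. The comparisons with FBS also hold the difference in serum.

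A few genes outside the members were examined beside them. Of the prostate transcription factors, *HOXB13* was lower than in CSS in FBS and at 4 hours of EGF and of NRG-1 (-0.46 ± 0.045 SE, -0.86 ± 0.046 SE, and -0.72 ± 0.045 SE), and *FOXA1* was lower in FBS (-0.42 ± 0.052 SE) and did not pass the test at 4 hours (-0.08 ± 0.052 SE and -0.12 ± 0.052 SE). Of 5 steroid receptor genes, 1 rose and 4 fell in FBS, and 2 rose and 1 fell at 4 hours of each ligand. *NR3C1*, which encodes the glucocorticoid receptor, was at 1.20 ± 0.421 TPM in CSS and did not pass the test with EGF (-0.13 ± 0.093 SE) or NRG-1 (0.13 ± 0.092 SE) at 4 hours. The kallikreins *KLK2* and *KLK3* rose in FBS (3.99 ± 0.12 SE and 3.33 ± 0.12 SE) and fell at 4 hours of EGF (-1.37 ± 0.12 SE and -0.63 ± 0.11 SE) and of NRG-1 (-1.20 ± 0.12 SE and -0.55 ± 0.11 SE).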

How the data were processed

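RNA-Seq of 32 LNCaP libraries (8 groups, *n* = 4, in 2 batches) was analyzed from the tables the authors deposited. Per the labels, poly(A) RNA was made into strand-specific libraries. The submitters' processing notes name Trimmomatic 0.36, STAR 2.7.0f, RSEM, and hg19; the annotation and the RSEM version are not given in the sources used here. The deposited expected counts are RSEM estimates per gene, not normalized. The deposited TPM values are scaled by the authors to transcript length and library total. Reads that fit several genes were shared out by estimation, so levels of genes with close relatives are uncertain.

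Expected counts were rounded (11.2% of values were not whole), and 16995 of 25498 genes passed a minimum of 5 counts in 3 or more libraries. Library totals ranged from 63822654 to 92401724. Groups were taken from the labels, and TMM scaling and the quasi-likelihood test of edgeR 4.0.16 (R 4.3.3) were run on all libraries, with group and batch as terms, over all genes. Calls were made at a Benjamini-Hochberg adjusted p below 0.05, and the SE is the log2 difference divided by the square root of its F. Alternatives were DESeq2 1.42.0, DESeq2 size factors, no filter, no batch term, each batch alone, a fit of just the 2 groups of a comparison, the replicate block, limma 3.58.1 on log2(TPM + 1) or log2(TPM + 0.1) with TPM of at least 0.1 in at least 3 libraries or with no TPM filter, and each library left out. The fits were tested on simulated data.

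Same-numbered libraries of 1 batch deviated together from their group means (112 of 112 pairs with a correlation over 0.1; range, 0.133 to 0.571); with batch means removed, 54 of 112 did (-0.0639 to 0.427). Since all pairs passed the limit, the block values are given where they change a call. Replicates differed by more than sampling noise in all 48 pairs (chi-square per degree of freedom, 6.50 to 262).

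The members and lists were chosen with earlier results of these data known. All 45 members are named; library values are given for the 6 largest rises and the 6 largest falls among called members whose average log2 CPM was 0 or more, in FBS and at 4 hours of each ligand against CSS, and for *FKBP5*, *TMPRSS2*, *PMEPA1*, *NDRG1*, *SGK1*, *CAMKK2*, and *INPP4B*. Values of other members were added after they were seen. Promoter windows and motifs came from RefSeq on GRCh38.p14 and were not placed on hg19. Some genes examined beside the members are not reported here.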

Additional observations from a re-analysis of the deposited data

Results flagged for a closer look

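*TNFAIP8* in the NRG-1 4 h group was at 20.6 CPM in batch 2 replicate 2 and between 18.2 and 18.5 CPM in the other 3 libraries, so that this library stood apart from its group. It was 1 of 96 groups of 4 libraries examined, and chance alone marks about 1 in 20, or about 5.

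The effects of the ligands at 4 hours differed for *ELL2*, which was higher with EGF than with NRG-1 by a log2 difference of 0.51, and for *TMPRSS2*, by 0.37, both in the edgeR test of the difference itself. Both calls were lost within batch 2 alone, and that of *TMPRSS2* also without EGF 4 h batch 1 replicate 1 or batch 1 replicate 2.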

How the results depend on the processing

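No called member changed direction under any alternative, and all alternatives listed were run. The counts of members called in FBS vs CSS (40), with EGF at 4 h (34), with NRG-1 at 4 h (28), and in EGF 4 h or NRG-1 4 h vs FBS (43 and 44) stayed within 1.5 times under every alternative fit except batch 2 alone at 4 h, which called 21 with EGF and 17 with NRG-1. With a log2 difference beyond 1 also required, the counts were 21 for FBS vs CSS, 1 for EGF 1 h, 0 for NRG-1 1 h, 3 for EGF 4 h, 4 for NRG-1 4 h, 0 for EGF vs NRG-1 at 4 h, 25 for EGF 4 h vs FBS, and 24 for NRG-1 4 h vs FBS. In the same order, the shares of all genes tested were 8.71%, 1.72%, 0.989%, 9.56%, 7.41%, 0.171%, 16.4%, and 14.4%. The small counts moved more. For EGF 1 h (5) they were 3 with no batch term, 8 with only the 2 groups compared, 3 in batch 1 alone, and 1 in batch 2 alone. For NRG-1 1 h (5) they were 3 with no batch term, 3 in batch 1 alone, 1 in batch 2 alone, and 3 with limma on log2(TPM + 1), on log2(TPM + 0.1), and with no TPM filter. For EGF vs NRG-1 at 1 h (0 by edgeR) 1 was called by DESeq2, in batch 1 alone, and by limma on log2(TPM + 1) with and without the filter. For EGF vs NRG-1 at 4 h (2) they were 4 by DESeq2, 1 with no batch term, 1 with only the 2 groups compared, 4 in batch 1 alone, 0 in batch 2 alone, and 1 in each of the 3 limma fits. The cause of these moves was not tested, except that a batch alone has fewer libraries. With the replicate block as a term, 8 members were called for EGF 1 h, 10 for NRG-1 1 h, 1 for EGF vs NRG-1 at 1 h, and 8 for EGF vs NRG-1 at 4 h; the block changed no call other than those given with the results. Leaving out 1 library gave 40 to 41 for FBS vs CSS, 0 to 0 for either ligand at 5 min, 4 to 5 for EGF 1 h, 2 to 5 for NRG-1 1 h, 31 to 34 for EGF 4 h, 26 to 29 for NRG-1 4 h, 0 to 1 for EGF vs NRG-1 at 1 h (1 without NRG-1 1 h batch 2 replicate 1), 1 to 3 at 4 h (1 without EGF 4 h batch 1 replicate 1 or 2), 42 to 43 for EGF 4 h vs FBS, and 43 to 44 for NRG-1 4 h vs FBS. *HPGD*, *CHRNA2*, *MAK*, and *TRPM8*, at under 1 TPM in CSS, rest on few reads. In CSS, *HPGD*, *CHRNA2*, and *MAK* had the fewest. At 4 h *CHRNA2* had 31, 55, 16, and 16 counts with EGF and 27, 26, 15, and 16 with NRG-1. *TRPM8* had 42 and 47 counts in the batch 2 libraries with EGF at 4 h.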
